A study of Homo sapiens with 18 samples.

Results

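The proteasome genes of HMC3 cells, an immortalized human line used as a model of microglia, are described here across a dose series of oxidized low-density lipoprotein (oxLDL). Gene symbols that begin with PSMA to PSMG and a number, together with POMP and ADRM1, selected 47 of the 13992 rows of the deposited table, and 42 of these are genes of proteasome subunits, assembly factors, activators or the inhibitor. The other 5 matched by name only: the antisense RNAs PSMA3-AS1, PSMD6-AS2 and PSMG3-AS1, and PSMC3IP and PSME3IP1, which encode interacting proteins. All groups were wild-type HMC3 cells kept for 24 h with oxLDL, at 100, 50, 10, 2.5 or 1 µg/ml, or without it (0 µg/ml), with 3 libraries of poly-A RNA at each of the 6 doses. The labels give the same batch value to all 18 libraries. They do not name separate cultures for the 3 libraries of a dose, so the spread behind each p-value may be that of technical repeats.

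The 26S proteasome degrades proteins that carry ubiquitin chains. Its core particle is a barrel of alpha rings, which gate the entry, and beta rings, whose subunits PSMB5, PSMB6 and PSMB7 hold the protease sites. The regulatory particle caps the barrel. Its base holds a ring of ATPases that unfold substrates and ubiquitin receptors, among them ADRM1 and PSMD4. Its lid holds PSMD14, which removes ubiquitin chains. Dedicated chaperones assemble the core and the base. In immune cells, interferon signalling replaces the catalytic subunits by the inducible forms PSMB8, PSMB9 and PSMB10 and raises the activator PSME1-PSME2, and the transcription factor NFE2L1 raises subunit genes when proteasome activity is short.

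Values are FPKM, fragments scaled by transcript length and library total, and recovered depths ran from 13919066 to 37382244 reads a library. The cells were checked against cell type markers. Of 12 microglia and macrophage markers only CD68 had a row, with 11.9 to 12.4 FPKM at 0 µg/ml and 14.3 to 15.7 at 100 µg/ml, and AIF1, CX3CR1, P2RY12, TMEM119 and PTPRC had none. Of 8 pericyte and fibroblast markers 7 had a row, and their summed level was 1304 to 1437 FPKM at 0 µg/ml and 989 to 1095 at 100 µg/ml. Astrocyte, neuron, endothelial and oligodendrocyte markers summed to at most 2.13, 1.89, 0.0956 and 0.0959 FPKM in any library. The part of these marker shifts in the differences below was not tested.

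The 42 genes span all parts of the complex. The table has 7 alpha ring genes of 8, 6 of 7 constitutive beta ring genes, 1 of 4 inducible or thymus-specific beta genes, 5 of 6 base ATPases, all 4 non-ATPase subunits of the base, all 8 lid genes, 5 core assembly factors, 3 base assembly factors and 3 of 5 activators and inhibitors. PSMA8, PSMB3, PSMB8, PSMB9, PSMB11, PSMC4, PSME1 and PSME2 are not analysed here. All 42 genes passed the filter on low values (FPKM of at least 0.5 in at least 3 libraries), as did 4 of the 5 genes matched by name only.

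Subunits that work together in fixed numbers did not have equal FPKM values. At 0 µg/ml the mean FPKM ran from 4.20 for PSMA6 to 809.6 for PSMA7, both of the alpha ring, with a median of 85.95 over the 42 genes. Class medians were 197 FPKM for the beta ring, 239.9 for the non-ATPase base subunits, 114 for the alpha ring, 107 for the lid, 68.4 for the base ATPases, 41.8 for core assembly and 29.95 for base assembly. PSMA6 rests on 79 to 194 reads a library, and the RefSeq annotation lists a read-through gene, PRORP-PSMA6, over it on chromosome 14, so its reads could be divided between both. It also shares 14.1% of its exon bases with another annotated gene and has 4 named pseudogenes. The part of read assignment in its low value was not tested. In the least covered member after PSMA6, the inducible subunit PSMB10, the fewest reads in a library were 245.

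With 100 µg/ml oxLDL, 13 of the 42 proteasome genes rose and none fell, against 0 µg/ml. That is 31%, beside 7.94% of the 12127 tested genes called higher and 7.51% called lower (15.5% in either direction). The count at an unadjusted p under 0.05 was 23 of 42, beside 28.1% of tested genes. The rises were small: the median log2 fold change of the 42 genes was 0.089, beside -0.0037 over all tested genes, with a range of -0.14 to 0.28. The fold was above 0 in 36 of 42 genes, beside 48.5% of all tested genes. All 3 treated libraries lay above all 3 untreated ones in 22 genes and below them in 3, where 16.5% of tested genes lay above and 16.9% below. Most members are highly expressed, and among tested genes with a mean of at least 20 FPKM, a cut chosen after the data were seen, 12.3% were called higher, beside 13 of the 37 proteasome genes in that class (35.1%). In bulk RNA, a change in the number of cells of a type and a change in RNA per cell cannot be told apart. Of the 13 calls, 12 held under all 14 alternatives, and PSMC6 did not.

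**Figure D1:**
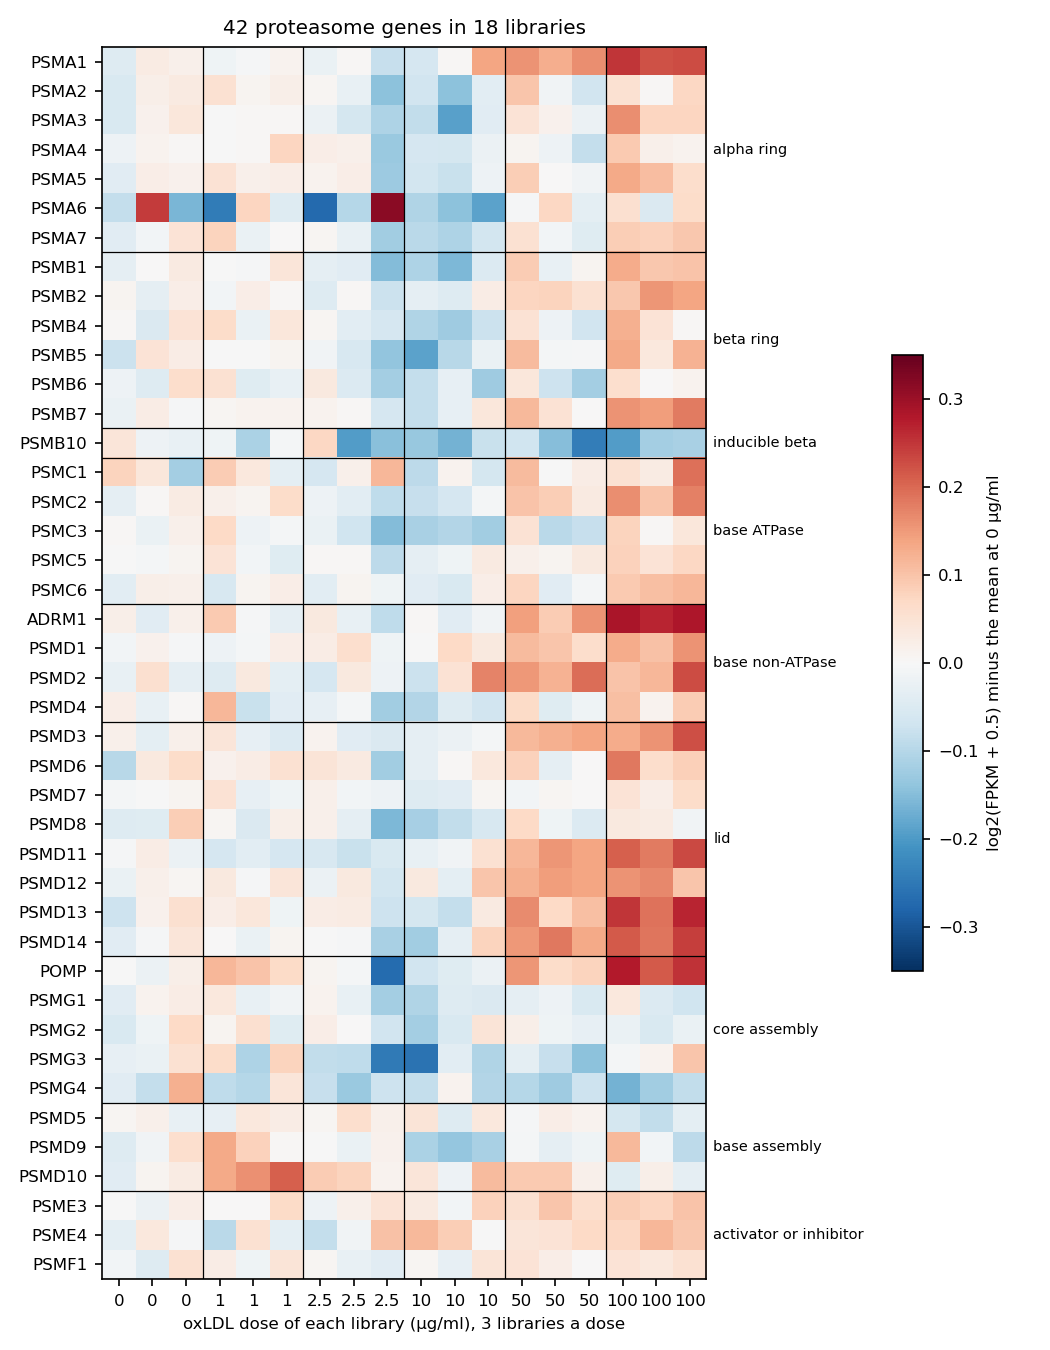
Log2 difference of each of the 42 proteasome genes (rows, ordered by role) in each of the 18 libraries (columns, ordered by dose) from the gene's mean at 0 µg/ml, on the log2(FPKM + 0.5) scale, red above and blue below, with the colours cut at the ends of the scale. The lid and base rows are mostly red at 50 and 100 µg/ml, and most rows are blue or pale at 10 µg/ml.

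Below 50 µg/ml no proteasome gene was called. With 1 or 2.5 µg/ml, limma and limma-voom called 0 of the 42, and over all tested genes 0% were called. At an unadjusted p under 0.05 in limma there was 1 of 42 with 1 µg/ml (3.01% of tested genes). With 2.5 µg/ml there were 2 of 42 (4.38%), and both are near the background. The fold was above 0 in 26 of 42 genes with 1 µg/ml (46.6% of tested genes) and in 6 of 42 with 2.5 µg/ml (57.3%). At 10 µg/ml both tools called 0 of the 42, beside 0.0412% of all tested genes (0.033% higher and 0.00825% lower). At an unadjusted p under 0.05 there were 9 of the 42, beside 9.77% of tested genes. At that dose the fold was above 0 in 11 of 42 genes, beside 57.8% of tested genes, and the median was -0.043, while the median over all tested genes was 0.016. In 12 genes all 3 libraries at 10 µg/ml lay below all 3 at 0 µg/ml, where 6.84% of tested genes did so, and in none did they lie above (10.1% of tested genes). The 9 genes were PSMA3, PSMA7, PSMB1, PSMB4, PSMB5, PSMB10, PSMC3, PSMD9 and PSMG3, all lower at 10 µg/ml, and their adjusted p was at least 0.502, so these differences did not pass the test.

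At 50 µg/ml 6 genes rose and none fell: PSMA1, ADRM1, PSMD3, PSMD11, PSMD12 and PSMD14. That is 14.3% of the 42, beside 3.78% of tested genes called higher and 3.69% lower (7.47% in either direction). Among genes with a mean of at least 20 FPKM the share called higher was 6.02%, beside 6 of 37 proteasome genes (16.2%). The fold was above 0 in 31 of 42 genes (51.8% of tested genes), and all 3 libraries lay above the untreated ones in 14 genes and below them in 2 (14.9% and 13.3% of tested genes). The median fold was 0.022 over the 42 genes and 0.0041 over all tested genes. The count of genes called higher was 1, PSMD11, after median-ratio scaling. It was 2, 3 and 3 without replicates 1, 2 and 3 of 0 µg/ml, and 3, 2 and 1 without those of 50 µg/ml. The share of all tested genes called in each of these fits is not given here. A loss of calls in the proteasome genes thus cannot be told from a loss over all genes.

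Neighbouring doses were compared to place the change. From 10 to 50 µg/ml ADRM1, PSMD3, PSMD11 and PSMD14 rose and no gene fell, which is 4 of 42 genes beside 1.39% of tested genes called higher and 1.22% lower (2.61% in either direction). The median fold was 0.083, the fold was above 0 in 38 of 42 genes, and 45.4% of all tested genes had one above 0. The count called higher was 0 when only these doses were fitted, 0 without replicate 1 or 2 of 10 µg/ml or replicate 2 of 50 µg/ml, 13 without replicate 3 of 10 µg/ml, and 2 and 1 without replicates 1 and 3 of 50 µg/ml. For these fits too the share of all tested genes is not given, so a change over all genes cannot be set apart. From 50 to 100 µg/ml limma and limma-voom called none of the 42, beside 0.28% of tested genes (0.223% higher and 0.0577% lower). At an unadjusted p under 0.05 there were 13 of the 42, beside 8.33% of tested genes. The median fold of that step was 0.059, and 37 of 42 genes had a fold above 0 beside 46.7% of tested genes.

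Along the doses, a straight line on log2(dose + 1) rose in 15 genes and fell in 1, PSMB10, beside 25.6% of tested genes called (13% rising and 12.6% falling). Among genes with a mean of at least 20 FPKM 17.8% rose, beside 15 of 37 proteasome genes (40.5%). A test over all 5 differences from 0 µg/ml, which needs no order, called 18 of 42 genes, beside 15.4% of tested genes. PSMA3, PSMA7, PSMB1, PSMB5, PSMD2 and PSMD10 were called there and at no single dose. PSMD10, a base chaperone also known as gankyrin, had its highest level at 1 µg/ml. Its FPKM was 40.2, 41.6 and 42.1 without oxLDL, 45.3, 46.2 and 47.8 with 1 µg/ml and 40.1, 41.9 and 40.4 with 100 µg/ml. All 3 libraries at 1 µg/ml lay above those at 0 µg/ml, the log2 fold change was 0.17, and the test over all doses gave an adjusted p of 0.02.

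The core and the regulatory particle were compared next, because a complete 26S particle needs both. At 100 µg/ml 9 of 17 regulatory particle genes rose (52.9%) and 3 of 13 core genes did (23.1%), and none fell in either. Of all tested genes 7.94% were called higher and 7.51% lower. All 13 core genes and all 17 regulatory particle genes had a fold above 0, beside 48.5% of tested genes, with medians of 0.097 and 0.13. At 50 µg/ml 5 of 17 regulatory particle genes (29.4%) and 1 of 13 core genes (7.69%) rose, beside 3.78% of tested genes, with medians of 0.073 and 0.014. Of these calls only that of PSMD11, a lid gene, was left after median-ratio scaling. At 10 µg/ml 12 of 13 core genes and 12 of 17 regulatory particle genes had a fold below 0, with medians of -0.083 and -0.023, and none was called. Of all tested genes 57.8% had a fold above 0 at that dose. The difference between these counts was not tested, since the members were chosen with earlier results of these data known.

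In each library the mean log2(FPKM + 0.5) of the core genes was set against that of the regulatory particle genes. The core stood above the regulatory particle by 0.0855, 0.125 and 0.109 without oxLDL and by 0.0836, 0.118 and 0.125 with 1 µg/ml. It stood above by 0.0904, 0.0852 and 0.0959 with 2.5 µg/ml, by 0.0738, 0.0423 and 0.0596 with 10 µg/ml, by 0.0809, 0.0700 and 0.0303 with 50 µg/ml and by 0.0882, 0.0739 and 0.0461 with 100 µg/ml. All libraries at 10 and 50 µg/ml thus lay below all at 0 µg/ml, and those at 100 µg/ml overlapped them. Against 0 µg/ml the mean was lower by 0.048 with 10, 0.046 with 50 and 0.037 with 100 µg/ml, where the SD over libraries of a dose was 0.0054 to 0.027. The value at 10 µg/ml came with a core mean 0.071 lower than at 0 µg/ml, and the one at 100 µg/ml with a core mean 0.093 ± 0.023 higher and a regulatory particle mean 0.13 higher (SD, n = 3). With medians over members in place of means, the difference at 10 µg/ml was 0.018 above that at 0 µg/ml, so its direction there depends on how members are averaged. With medians the libraries at 50 µg/ml ran from 0.139 to 0.225 and overlapped those at 0 µg/ml (0.202 to 0.293). PSMA6, with its low level, lowers the core mean, and without it, a choice made after the data were seen, the mean was lower than at 0 µg/ml by 0.042, 0.045 and 0.031 at 10, 50 and 100 µg/ml.

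**Figure D2:**
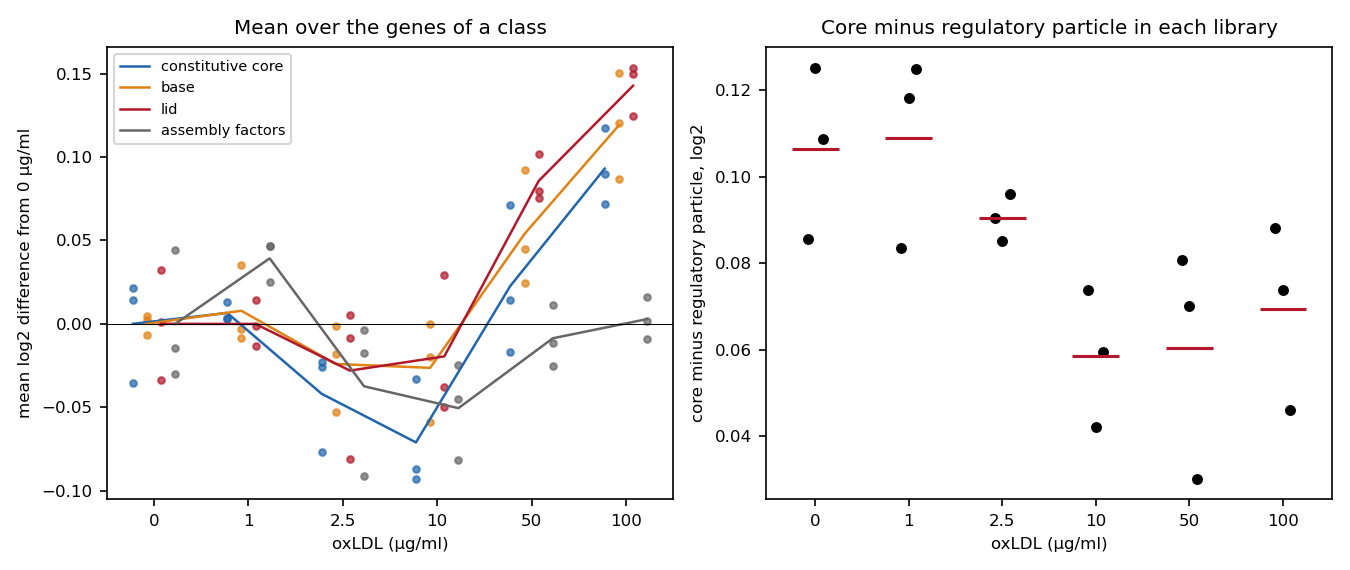
Mean log2 difference from 0 µg/ml for the core, base, lid and assembly factor genes in each library, against the oxLDL dose in µg/ml. Points are libraries and lines join the means of 3: the lid runs from 0.125 to 0.154 at 100 µg/ml and the assembly factors from -0.0090 to 0.016.

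Of the core, the alpha ring gates the barrel. Among its 7 genes 1 rose at 100 µg/ml (14.3%), where 7.94% of all tested genes were called higher. That gene, PSMA1 (hg38 chromosome 11, 14504876 to 14643662), had 115, 121 and 120.5 FPKM without oxLDL, 118, 119 and 120.2 with 1 µg/ml and 117, 119.5 and 112 with 2.5 µg/ml. It had 114, 119 and 131 with 10 µg/ml, 133, 130.2 and 133 with 50 µg/ml and 142, 139 and 139.5 with 100 µg/ml. All libraries at 50 and at 100 µg/ml were above all those at 0 µg/ml, and the libraries at 10 µg/ml spread across the untreated range and above it. The log2 fold change at 100 µg/ml was 0.23 (SE 0.039, adjusted p 0.000601), a mean 17.6% higher. At 50 µg/ml it was 0.15 (SE 0.039, adjusted p 0.0271), a call lost in 6 of 14 alternatives. PSMA1 shares 24.7% of its exon bases with a gene on the same strand. The folds of the other 6 alpha genes at 100 µg/ml were 0.044 for PSMA2, 0.10 for PSMA3, 0.040 for PSMA4, 0.10 for PSMA5, 0.023 for PSMA6 and 0.088 for PSMA7, and none passed the test.

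The beta ring holds the protease sites, and 2 of its 6 constitutive genes rose at 100 µg/ml, PSMB7 and PSMB2. That is 33.3%, beside 7.94% of all tested genes called higher. PSMB7 (hg38 chromosome 9, 124353465 to 124415442), which has the trypsin-like site, had 148, 153 and 149.9 FPKM without oxLDL, 151, 152 and 152 with 1 µg/ml and 152, 151 and 144 with 2.5 µg/ml. It had 142, 147 and 155 with 10 µg/ml, 163, 156 and 150.5 with 50 µg/ml and 168, 167 and 171 with 100 µg/ml. Only the libraries at 100 µg/ml lay apart from the untreated ones, and the log2 fold change was 0.16 (SE 0.034, adjusted p 0.00335), a mean 11.9% higher. The other catalytic subunits did not pass. PSMB5 (chromosome 14, 23025851 to 23035220), with the chymotrypsin-like site, had 191, 208 and 205 without oxLDL, 201, 201 and 202 with 1 µg/ml and 199, 193 and 183 with 2.5 µg/ml. It had 176, 188 and 198 with 10 µg/ml, 217, 200.1 and 200.4 with 50 µg/ml and 220.2, 206 and 218 with 100 µg/ml. Its ranges at 0 and 100 µg/ml overlapped, its lowest level was at 10 µg/ml, and its fold at 100 µg/ml was 0.10 (SE 0.046, adjusted p 0.185). PSMB6 (chromosome 17, 4796164 to 4798495), with the caspase-like site, had 274, 269 and 289.8 without oxLDL, 288, 269.6 and 272 with 1 µg/ml and 285, 269 and 256 with 2.5 µg/ml. It had 262, 272 and 255 with 10 µg/ml, 285, 264 and 256 with 50 µg/ml and 289.5, 278 and 280.0 with 100 µg/ml. The PSMB6 ranges at 0 and 100 µg/ml overlapped, and the fold between them was 0.024 (SE 0.046, adjusted p 0.794). All its libraries at 10 µg/ml lay below all those at 100 µg/ml. PSMB2, a non-catalytic subunit, had 53.4, 51.9 and 53.9 without oxLDL and 56.6, 59.1 and 58.5 with 100 µg/ml, a log2 fold change of 0.13 (SE 0.029, adjusted p 0.00563).

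The inducible subunit PSMB10 (hg38 chromosome 16, 67934506 to 67936850) was the single gene with a falling line. It can take the place of PSMB7 in immunoproteasomes. Its FPKM was 20.1, 19.3 and 19.2 without oxLDL, 19.3, 18.1 and 19.4 with 1 µg/ml and 20.5, 16.99 and 17.6 with 2.5 µg/ml. It was 17.8, 17.4 and 18.5 with 10 µg/ml, 18.6, 17.6 and 16.4 with 50 µg/ml and 16.97, 17.9 and 18.02 with 100 µg/ml. All libraries at 10, 50 and 100 µg/ml lay below all 3 untreated ones. The log2 fold change at 100 µg/ml was -0.14 (SE 0.059, adjusted p 0.119), which did not pass, and the slope was -0.021 per unit of log2(dose + 1) with an adjusted p of 0.0232. That slope was not called without replicate 1 of 0 µg/ml, replicate 3 of 50 µg/ml or replicate 1 of 100 µg/ml (adjusted p 0.057, 0.052 and 0.053), nor under limma-voom or a line on the dose itself. PSMB10 shares 34.8% of its exon bases with another annotated gene.

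**Figure D3:**
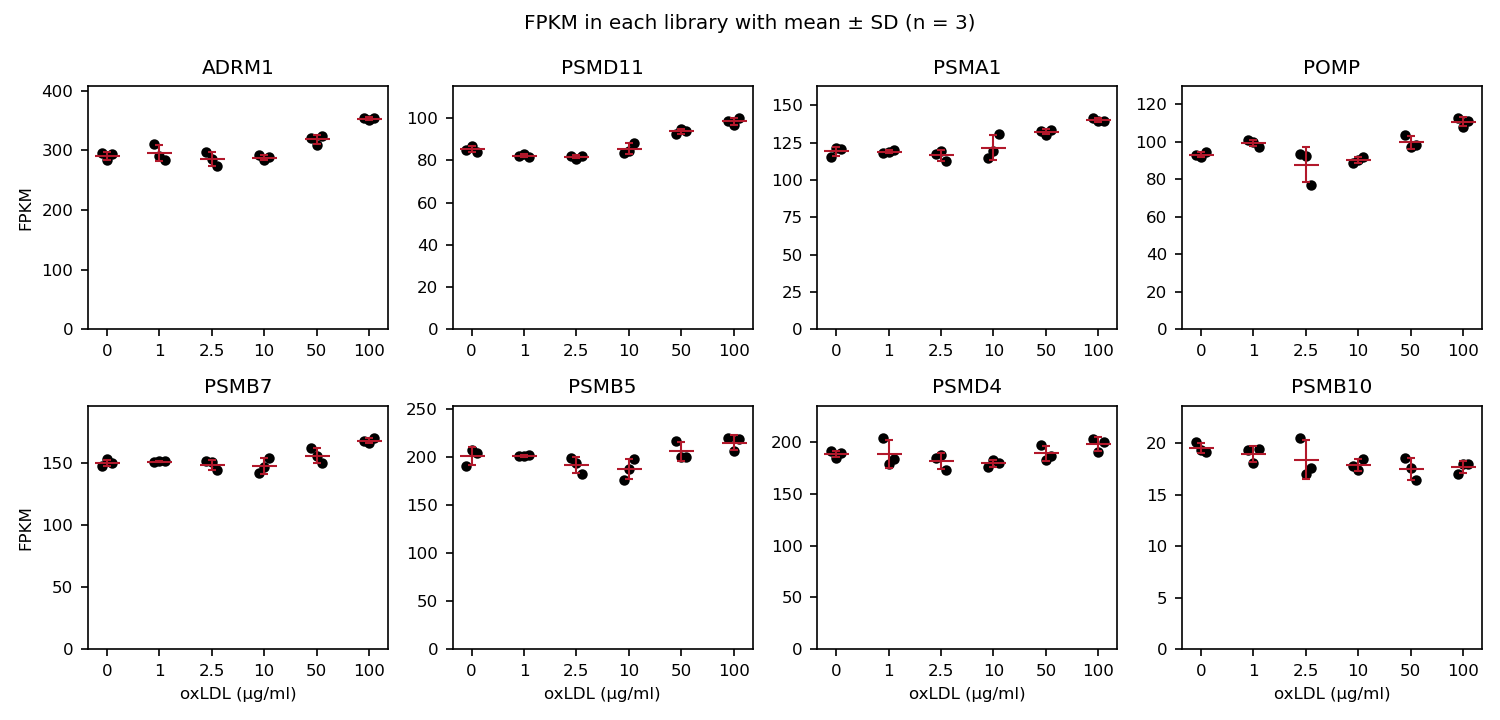
FPKM of single proteasome genes in each of the 18 libraries, with 1 panel a gene, against the oxLDL dose in µg/ml; each point is a library, drawn with the mean ± SD of 3. ADRM1 sits at 350.2 to 355 FPKM at 100 µg/ml and at 283 to 295 at 0 µg/ml, and PSMB10 at 16.97 to 18.02 and at 19.2 to 20.1.

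Of the base ATPases, which unfold substrates and thread them into the core, PSMC2 and PSMC6 rose at 100 µg/ml, 2 of 5 genes. That is 40%, beside 7.94% of all tested genes called higher. PSMC2 (hg38 chromosome 7, 103347524 to 103369395) had 66.9, 68.6 and 69.8 FPKM without oxLDL, 69.2, 68.9 and 71.5 with 1 µg/ml and 67.6, 66.7 and 64.3 with 2.5 µg/ml. It had 64.7, 65.7 and 68.1 with 10 µg/ml, 73.4, 72.6 and 69.96 with 50 µg/ml and 76.6, 73.3 and 77.4 with 100 µg/ml. The mean was lowest at 2.5 and 10 µg/ml, the libraries at 50 and 100 µg/ml were all above the untreated ones, and the log2 fold change at 100 µg/ml was 0.15 (SE 0.032, adjusted p 0.00472). PSMC6 had 47.9, 49.9 and 49.7 without oxLDL and 52.4, 52.9 and 53.3 with 100 µg/ml, a log2 fold change of 0.10 (SE 0.033, adjusted p 0.0432). Leaving out any 1 of the 6 libraries of these doses ended that call, with adjusted p from 0.0629 to 0.172. The folds of PSMC1, PSMC3 and PSMC5 were 0.091, 0.040 and 0.066, none called. PSMC1 shares 75.8% of its exon bases with a neighbouring gene, NRDE2, the largest share among the 42.

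In the base, the ubiquitin receptor ADRM1 (hg38 chromosome 20, 62302896 to 62308862) had the highest fold of the 42 genes. Its FPKM was 295, 283 and 294 without oxLDL, 310.0, 290.1 and 285 with 1 µg/ml and 298, 286 and 273 with 2.5 µg/ml. It was 292, 283 and 289 with 10 µg/ml, 321, 309 and 324 with 50 µg/ml and 355, 350.2 and 354 with 100 µg/ml. All libraries at 50 µg/ml lay above the untreated ones, and all at 100 µg/ml lay above those of every other dose. The log2 fold change at 100 µg/ml was 0.28 (SE 0.036, adjusted p 5.44e-05), a mean 21.3% higher, and at 50 µg/ml it was 0.13 (SE 0.036, adjusted p 0.0369), which 8 of 14 alternatives lost. Another ubiquitin receptor, PSMD4 (chromosome 1, 151254734 to 151267479), had 192, 185 and 189 without oxLDL, 205, 179 and 184 with 1 µg/ml and 185, 188 and 173 with 2.5 µg/ml. It had 176, 183 and 180.2 with 10 µg/ml, 198, 183 and 187 with 50 µg/ml and 203, 190.3 and 201 with 100 µg/ml. Its ranges at 0 and 100 µg/ml overlapped, and its fold at 100 µg/ml was 0.069 (SE 0.046, adjusted p 0.37). All its libraries at 10 µg/ml lay below the untreated ones, with no call at that dose. Of the large scaffold subunits, PSMD1 rose from 50.4, 51.2 and 50.6 to 55.5, 54.5 and 56.6 FPKM, a log2 fold change of 0.13 (SE 0.028, adjusted p 0.0043). PSMD2 had 321, 339.9 and 319.9 without oxLDL and 350.3, 354 and 383 with 100 µg/ml, with a fold of 0.15 (SE 0.052, adjusted p 0.065), and was called on the line over doses (adjusted p 0.00142).

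The lid had the most calls of any role, 5 of 8 at 100 µg/ml (62.5%) and 4 of 8 at 50 µg/ml (50%). Of all tested genes 7.94% and 3.78% were called higher at these doses. At 50 µg/ml the calls of PSMD14, PSMD3 and PSMD12 were lost in 6, 4 and 5 of 14 alternatives. PSMD11 (hg38 chromosome 17, 32444510 to 32483319), a scaffold subunit of the lid, had 85.1, 86.8 and 84.02 FPKM without oxLDL, 81.8, 83.1 and 81.8 with 1 µg/ml and 82.1, 80.8 and 82.2 with 2.5 µg/ml. It had 83.7, 84.6 and 88.4 with 10 µg/ml, 92.5, 95.0 and 93.9 with 50 µg/ml and 98.7, 96.8 and 100.2 with 100 µg/ml. Every library at 50 µg/ml was above every library of the lower doses, and every library at 100 µg/ml was higher again. The log2 fold change was 0.21 (SE 0.026, adjusted p 4.23e-05) at 100 µg/ml and 0.14 (SE 0.026, adjusted p 0.00424) at 50 µg/ml, and both calls held in all 14 alternatives. PSMD14, the deubiquitinase of the lid, had 125, 128 and 132 without oxLDL and 149, 146 and 152 with 100 µg/ml, a log2 fold change of 0.21 (SE 0.042, adjusted p 0.00224). PSMD13 had 121, 128 and 132 and then 151, 145 and 153 at those doses, a change of 0.24 (SE 0.041, adjusted p 0.000858). PSMD3, another structural subunit, had 130.2, 126 and 130.2 and then 141, 144 and 151, a change of 0.17 (SE 0.030, adjusted p 0.00104). PSMD12 had 44.2, 45.5 and 45.1 and then 50.1, 50.5 and 48.1, a change of 0.14 (SE 0.034, adjusted p 0.00961). In each of these 5 lid genes all libraries at 100 µg/ml lay above the untreated ones, as in 16.5% of tested genes. The 5 were picked by their call in the same libraries, so this adds no separate evidence. PSMD6, PSMD7 and PSMD8 had folds of 0.11, 0.046 and 0.017 and did not pass.

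**Figure D4:**
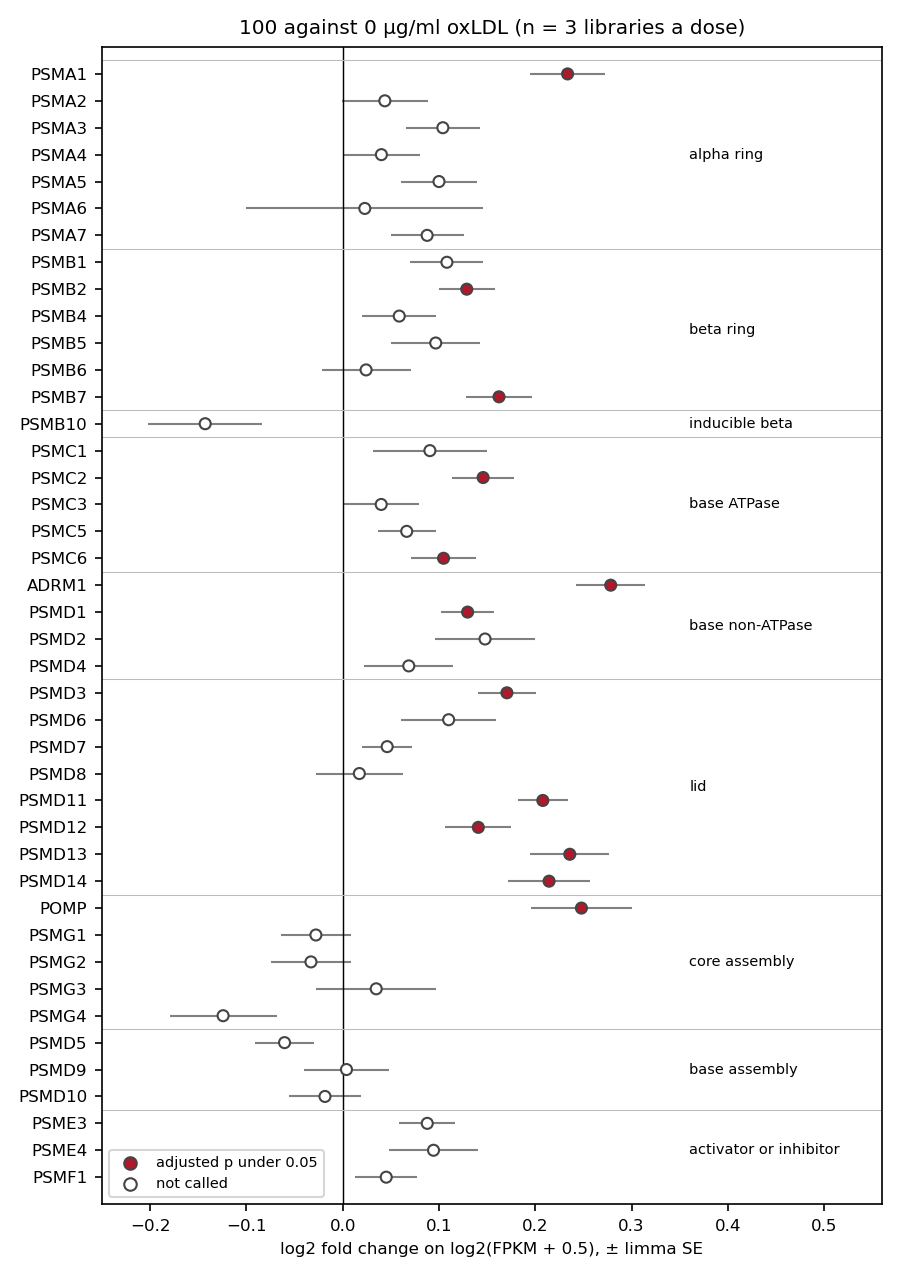
Log2 fold change at 100 against 0 µg/ml with the limma SE for each of the 42 proteasome genes, grouped by role, filled where called. Filled points are most frequent in the lid (5 of 8), and the folds of PSMB10, PSMG4 and PSMD5 lie below 0.

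Assembly factors, which guide the building of the particle and are not part of it when mature, did not move together. POMP (hg38 chromosome 13, 28659130 to 28678959), the maturation factor of new core particles, was the single gene called at 100 µg/ml of 5 core and 3 base assembly factors. That is 12.5%, beside 7.94% of all tested genes called higher. The FPKM of POMP was 92.8, 91.6 and 94.4 without oxLDL, 101, 99.7 and 97.3 with 1 µg/ml and 93.6, 92.4 and 76.97 with 2.5 µg/ml. It was 88.8, 90.2 and 91.5 with 10 µg/ml, 104, 97.1 and 98.05 with 50 µg/ml and 113, 108 and 111 with 100 µg/ml. Replicate 3 at 2.5 µg/ml was low, all libraries at 1, 50 and 100 µg/ml lay above the untreated ones, and the log2 fold change at 100 µg/ml was 0.25 (SE 0.053, adjusted p 0.00387). The core chaperones PSMG1, PSMG2, PSMG3 and PSMG4 had folds of -0.028, -0.033, 0.035 and -0.12. Of the base chaperones, PSMD5 (chromosome 9, 120816053 to 120842922) had 30.1, 30.3 and 29.4 without oxLDL, 29.3, 30.8 and 30.5 with 1 µg/ml and 30.1, 31.2 and 30.3 with 2.5 µg/ml. It had 30.9, 28.99 and 30.7 with 10 µg/ml, 29.9, 30.4 and 30.2 with 50 µg/ml and 28.7, 28.2 and 29.2 with 100 µg/ml. The libraries at 100 µg/ml all lay below the untreated ones, and the fold of -0.060 (SE 0.031, adjusted p 0.218) did not pass. PSMD9 and PSMD10 had folds of 0.0039 and -0.018.

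None of the activators and the inhibitor was called at a single dose. PSME3 (hg38 chromosome 17, 42833397 to 42843760), a nuclear activator that opens the core without ubiquitin, had 86.5, 85.4 and 87.97 FPKM without oxLDL, 86.7, 86.7 and 90.8 with 1 µg/ml and 85.5, 87.7 and 89.5 with 2.5 µg/ml. It had 88.5, 86.1 and 91.7 with 10 µg/ml, 90.1, 92.6 and 90.2 with 50 µg/ml and 92.04, 91.3 and 92.9 with 100 µg/ml. All libraries at 100 µg/ml lay above the untreated ones, the fold was 0.088 (SE 0.029, adjusted p 0.0504), and the line over doses rose (adjusted p 0.00713). PSME4 (chromosome 2, 53864069 to 53970993), a large single-chain activator, had 22.6, 23.8 and 23.1 without oxLDL, 21.7, 24.1 and 22.6 with 1 µg/ml and 21.8, 22.9 and 24.9 with 2.5 µg/ml. It had 25.1, 24.6 and 23.1 with 10 µg/ml, 23.9, 23.9 and 24.3 with 50 µg/ml and 24.4, 25.1 and 24.7 with 100 µg/ml. Its fold at 100 µg/ml was 0.094 (SE 0.046, adjusted p 0.195), and its line over doses was called (adjusted p 0.0351). That line was not called in 7 of 27 alternatives: the line on the dose itself, and the fits without replicate 1 of 0, replicate 1 or 3 of 1, replicate 3 of 50, or replicate 2 or 3 of 100 µg/ml (adjusted p up to 0.0845). PSMF1, which inhibits the core, had a fold of 0.045.

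Of the 13 genes called at 100 µg/ml, 6 share exon bases with another annotated gene, by up to 24.7%, and 7 share none. Of the 29 genes not called, 13 share such bases, by up to 75.8%. The kit named in the labels does not mark strand, and how strand was treated in counting is not given in the sources used here, so reads in shared bases cannot be assigned with certainty. Of the 5 genes matched by name only, 4 were tested and none was called, with folds from -0.089 for PSME3IP1 to 0.028 for PSMC3IP.

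The promoters were searched because 13 members rose at the same dose and because proteasome genes are known to carry antioxidant response elements, which NFE2L1 and NFE2L2 bind. RefSeq (GRCh38.p14) gave 250 bases before to 50 after the start for 36 of the 42 genes, and both strands were read. The element core TGACNNNGC was in 9 of 36 promoters (25%), in 3702 of the 27305 promoters of the table (13.6%), and in 1464 of 9519 promoters of tested genes (15.4%). It was in 4 of 12 promoters of genes called at 100 µg/ml (33.3%) and in 5 of 24 of those not called (20.8%). CCAAT, a general promoter motif, was in 17 of 36 promoters (47.2%), in 35.7% of all and in 37% of those of tested genes. It was in 5 of 12 promoters of the called genes (41.7%) and in 12 of 24 of those not called (50%). The windows below show the upstream matches of 3 called genes and of the 2 other genes whose match lies nearest the start, each 5′ to 3′ on the gene's strand, with the match in capitals. They are ADRM1 on the plus strand at chr20:62302733-62302792, PSMD3 on the plus strand at chr17:39980744-39980803, PSMD12 on the minus strand at chr17:67366709-67366768, PSME4 on the minus strand at chr2:53970994-53971053 and PSMG2 on the plus strand at chr18:12658673-12658732, all on GRCh38.p14.
ADRM1: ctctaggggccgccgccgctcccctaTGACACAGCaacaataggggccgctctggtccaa
PSMD3: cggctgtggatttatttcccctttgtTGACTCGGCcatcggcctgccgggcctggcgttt
PSMD12: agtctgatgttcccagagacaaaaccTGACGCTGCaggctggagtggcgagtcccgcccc
PSME4: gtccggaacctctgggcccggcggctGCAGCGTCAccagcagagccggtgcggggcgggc
PSMG2: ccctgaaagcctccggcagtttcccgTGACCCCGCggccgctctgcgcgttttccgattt
In PSME4 the match is on the opposite strand, so it reads as the reverse complement of the motif. The first base of the match lies at -137 from the start in ADRM1, -37 in PSMD3, -165 in PSMD12, -34 in PSME4 and -39 in PSMG2. A match of these letters is a description and not a shown binding site. PSMD11, with a called rise at both doses, was not among the 9 genes with a match. Whether its promoter was among the 36 searched is not given here.

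The proteasome depends on genes outside the complex, and 33 of a list of 34 such genes had a row and were tested. The list was chosen by role, with earlier results of these data known. At 100 µg/ml 9 rose and none fell, where 7.94% of tested genes were called higher, and the median fold was 0.079. Among them were 2 of 6 segregase genes, 2 of 8 other cofactors, 1 of 4 deubiquitinases and ligases and 1 of 6 genes of transcription and processing. UBQLN1, a shuttle that carries ubiquitinated proteins to the proteasome, went from 46.3 ± 0.934 FPKM to 52.6 ± 0.979 (SD, n = 3), a log2 fold change of 0.18 (SE 0.036, adjusted p 0.0021). VCP, the ATPase that extracts ubiquitinated proteins from membranes and complexes, went from 162 ± 1.42 to 175 ± 1.00, a change of 0.11 (SE 0.023, adjusted p 0.00295). Its cofactor UFD1 went from 55.7 ± 2.62 to 64.1 ± 1.39, a change of 0.20 (SE 0.045, adjusted p 0.005). AKIRIN2, which brings proteasomes into the nucleus, went from 12.7 ± 0.396 to 14.8 ± 0.797, a change of 0.22 (SE 0.062, adjusted p 0.0224). USP14, TXNL1 and ZFAND5 also rose, by log2 fold changes of 0.13, 0.15 and 0.13. The transcription factor genes did not pass: NFE2L1 had a fold of -0.025 (SE 0.041, adjusted p 0.755) and NFE2L2 one of -0.071 (SE 0.032, adjusted p 0.164), and the line over doses fell for NFE2L2 (adjusted p 0.0126). At 50 µg/ml UBQLN1, VCP and FAF2 rose, 3 of the 33, where 3.78% of tested genes were called higher.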

How the data were processed

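Poly-A RNA of 18 HMC3 libraries was sequenced as paired ends, per the labels' protocols. The authors deposited FPKM for 13992 gene symbols. HISAT2 2.0.5, featureCounts, DESeq2 and hg38 are named in the submitters' processing notes, with no role or order; the annotation is not given in the sources used here. Whole reads were recovered from the steps of FPKM for all 13992 genes (100% within 0.05 reads) and used only for limma-voom and for depth. Counting error is a lower limit, since without molecular identifiers PCR copies cannot be told from separate molecules.

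FPKM was put on a log2(FPKM + 0.5) scale, which understates changes of low genes. The 12127 genes that reached 0.5 FPKM in 3 or more of the 18 libraries entered 1 fit in limma 3.58.1 under R 4.3.3, with a mean for each dose, 12 residual degrees of freedom and a variance trend. Tests were two-sided, adjusted by Benjamini-Hochberg over all tested genes, and called at an adjusted p under 0.05. The fit was also run on simulated data with independent noise in each gene. Its outcome is not given here, and genes moving together were not simulated. Alternatives were other pseudocounts (0.1 and 1), filters, median-ratio scaling, only the doses compared, a replicate block, limma-voom and each library left out.

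Members and lists were chosen with earlier results of these data known. By rule, every library's value is given for the best-tested member of each role and for members called against the main direction. The rule also covers the catalytic subunits, the receptors ADRM1 and PSMD4, POMP and the activators. Lid, base and other members called at 100 µg/ml are given at 0 and 100 µg/ml. Member coordinates and promoters come from RefSeq, and the shares of exon bases from a GENCODE annotation of hg38. Some genes of the list outside the complex are counted but not reported here by name.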

Additional observations from a re-analysis of the deposited data

How the results depend on the processing

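Under other pseudocounts, filters, scaling, limma-voom, the replicate block and each left-out library, the count of genes called at 100 µg/ml stayed between 12 and 15. It was 12 without any 1 of the 6 libraries, and 1 gene, PSMB10, was called lower when only these doses were fitted. The count at 50 µg/ml was 1 after median-ratio scaling and 1 to 3 with a library left out. From 10 to 50 µg/ml it was 0 when only those doses were fitted and 0 to 13 with a library left out. The falling slope of PSMB10 was lost under limma-voom (0 called) and in 3 of 18 left-out fits (0 to 1). The cause of these changes was not tested, although fits without a library or with only the doses compared use fewer libraries. The share of all tested genes called in those fits is not given here. The median fold at 1 µg/ml ran from -0.0034 to 0.023 with a library left out. The core minus regulatory particle difference from 0 µg/ml, taken as a median over members, was 0.0043 with 2.5 µg/ml and 0.018 with 10 µg/ml. With a replicate block the counts were 15 at 100 µg/ml, 6 at 50 µg/ml and 4 from 10 to 50 µg/ml. Same-numbered libraries correlated from 0.0658 to 0.158 between 50 and 100 µg/ml, where 6 of 6 libraries were closest to their own number. Between 0 and 100 µg/ml they correlated from -0.213 to -0.0848 and between 0 and 50 µg/ml from -0.178 to -0.0329, with 0 of 6 closest in each. Since not every correlation was over 0.1 in any comparison, numbers were not treated as pairs. Depth limits PSMA6 most, with 79 reads in its least covered library.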

Other observations

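The 42 proteasome genes together held 1.33%, 1.35% and 1.34% of the summed FPKM in the libraries without oxLDL, 1.35%, 1.34% and 1.34% with 1 µg/ml and 1.34%, 1.33% and 1.31% with 2.5 µg/ml. They held 1.30%, 1.32% and 1.35% with 10 µg/ml, 1.41%, 1.38% and 1.39% with 50 µg/ml and 1.45%, 1.43% and 1.46% with 100 µg/ml. All libraries at 50 µg/ml lay above all those at 0 µg/ml, and all those at 100 µg/ml lay higher again. The most abundant transcripts, PSMA7 foremost, weigh most in this share, and no test was made of it, since the members were chosen.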
